A study of Mus musculus with 24 samples.

Results

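Prostanoids are short-lived lipid mediators made from arachidonic acid. Cyclooxygenases turn arachidonic acid into prostaglandin H2, and terminal synthases turn that into prostacyclin, thromboxane A2 or one of the prostaglandins, which act on G protein-coupled receptors of nearby cells. In arteries, prostacyclin is known as a vasodilator that restrains platelets, and thromboxane A2 as a vasoconstrictor that activates them. The 10 genes described here were listed by symbol and found by matching the Ensembl identifiers of the count tables to GENCODE mouse release 21. They are the cyclooxygenases Ptgs1 and Ptgs2, the terminal synthases Ptgis (prostacyclin), Tbxas1 (thromboxane A2), Ptges (prostaglandin E2) and Ptgds (prostaglandin D2), and the receptors Ptgir (prostacyclin), Tbxa2r (thromboxane A2), Ptger3 and Ptger4 (both prostaglandin E2). They are 10 of 55421 genes in the tables, and all 10 passed the filter on low counts, which left 25056 genes.

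RNA of uninjured carotid arteries was sequenced from ovariectomized C57BL/6 mice in 4 groups of 6 libraries. Each library has a number of its own in its title, taken here as that of an animal. The OVX group received placebo, and E2 (17β-estradiol), E4 (estetrol, a natural estrogen with more hydroxyl groups than E2) and TAM (tamoxifen, a selective estrogen receptor modulator) the named agent, so that ovariectomy is shared by all 4 groups. The labels give an age of 9 weeks and 3 weeks of treatment, whereas the published methods give a shorter treatment with subcutaneous pellets on a cholesterol base, in which the doses of E2 and E4 differed. The 6 E4 libraries carry E4 in their titles and a placebo entry in the treatment field. They were grouped by title, and each statement on E4 rests on that. Neither the labels nor the published methods describe the tamoxifen dose of the TAM group. Whole arteries hold several cell types, and in such bulk samples fewer cells of a type and less RNA per cell cannot be told apart.

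Library totals were 24647246 to 64221401 counts. Levels are CPM, counts scaled to a common depth with TMM library sizes. A gene was called changed at an adjusted p-value under 0.05, from the quasi-likelihood test of edgeR and adjusted by Benjamini-Hochberg over the 25056 genes. Endothelial, smooth muscle and fibroblast markers were detected in all 24 libraries, as were those of neighbouring tissue. The summed CPM of 8 sympathetic neuron markers was 26.3 in OVX C5 and 175.6 in TAM C35, against 1896 to 7381 in the other 22 libraries, and calls on prostanoid genes that change without both libraries are given with and without them. The 8 macrophage markers were all called higher with E2 and none of them was at 0 in any library. The 6 B cell markers were all called lower with E4, as were 5 of 7 fibroblast markers. The title numbers formed 2 series in every group, which the labels do not describe as batches.

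The start regions of the genes with the largest change in either direction, Tbxas1 with E2 and Ptgs2 with E4, are shown for context. Each is the 250 bases before the RefSeq start (GRCm38.p6, both genes on the + strand), 5′ to 3′, at chr6:38918736-38918985 for Tbxas1 and chr1:150099781-150100030 for Ptgs2, with matches to the searched motifs in capitals.
Tbxas1: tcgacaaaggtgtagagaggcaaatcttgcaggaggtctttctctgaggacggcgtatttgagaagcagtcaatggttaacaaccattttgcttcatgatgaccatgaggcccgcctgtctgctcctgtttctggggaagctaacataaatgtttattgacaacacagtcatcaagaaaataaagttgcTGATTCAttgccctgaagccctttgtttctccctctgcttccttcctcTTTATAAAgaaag
Ptgs2: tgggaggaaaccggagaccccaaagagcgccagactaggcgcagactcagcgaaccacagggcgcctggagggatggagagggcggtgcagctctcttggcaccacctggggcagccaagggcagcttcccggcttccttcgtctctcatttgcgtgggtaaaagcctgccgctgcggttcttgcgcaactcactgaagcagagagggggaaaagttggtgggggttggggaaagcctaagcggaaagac
Promoter sequence was found for 9 of the 10 genes, with 2 starts for Tbxa2r. The consensus estrogen response element (the full palindrome with 3 free bases) was in none of the 10 windows on either strand, and it is in 0.0639% of 32851 RefSeq windows of the same length. The AP-1 motif TGANTCA was in the windows of Tbxas1, 61 bases before the start, and of Ptgds (6.75% of all windows). The motif TATAAA was in that of Tbxas1, on both strands at overlapping positions (12.4% of all windows), and the cAMP response element TGACGTCA was in none (1.55%). The RefSeq start of Tbxas1 lies within the gene as GENCODE draws it, which begins at base 38875404 of chromosome 6. A match is a run of letters and not a measured binding site.

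Per length, prostacyclin synthase was the most abundant of the 10 transcripts in all 4 groups. Its mean level in OVX was 30.6 ± 9.14 CPM per kb of exon (SD, n = 6). Ptger3 followed with 14.5 ± 1.65, Ptgs1 with 8.12 ± 0.840 and Ptges with 6.89 ± 1.21 CPM per kb. The ranges of Ptgs1 and Ptges overlapped, and those of Ptgis and Ptger3 did not. Tbxa2r had 3.36 ± 0.840 CPM per kb. Ptgds (2.24 ± 0.941), Ptgs2 (2.20 ± 0.487) and Ptgir (2.16 ± 0.200) could not be separated in OVX beyond their spread. The lowest levels were those of Ptger4 (1.20 ± 0.224) and Tbxas1 (0.900 ± 0.150 CPM per kb), whose ranges overlapped. With E2, Tbxas1 reached 1.90 ± 0.322 CPM per kb, above all 6 Ptger4 values of that group. With E4, Ptgs2 fell to the lowest mean of the 10, 0.757 ± 0.178 CPM per kb, with values that overlapped those of Tbxas1. The lengths are those of all annotated exons merged, 9094 bases for Tbxas1 and 1649 for Ptgds, so that a gene with long unused exons is understated.

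**Figure D1:**
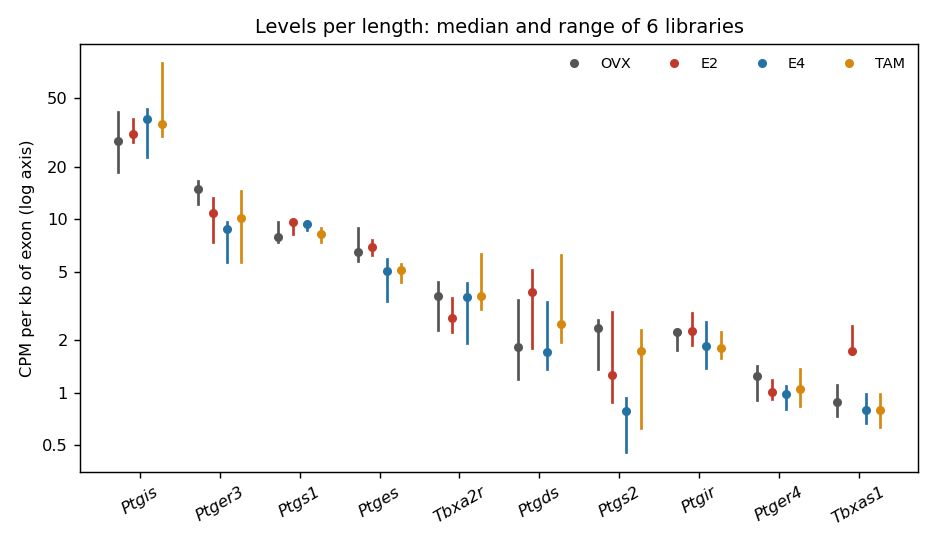
Level of each gene in CPM per kb of merged exon (log axis), ordered by the OVX mean, with the median (point) and range (line) of 6 libraries per group. Ptgis is highest in every group, and the range of Tbxas1 with E2 lies above its ranges in the other groups.

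With E2, 1 of the 10 genes was called changed as compared with OVX, against 4.14% of all tested genes. This was Tbxas1, which also passed the study's thresholds (adjusted p-value under 0.05 and absolute log2 fold change over 1), as did 1.27% of all genes. With E4, 4 of 10 were called (Ptgs2, Ptger3 and Ptges lower, Ptgs1 higher), against 22% of all genes, 12.5% lower and 9.5% higher, and only Ptgs2 passed the study's thresholds (2.51% of all genes). With tamoxifen, 1 of 10 was called, Ptges, which was lower, against 2.23% of all genes, and none passed the study's thresholds (0.315%). The number of all genes called with tamoxifen was 76 to 876 with 1 library left out, in place of 558. The libraries of OVX and the treated group did not overlap for 1 of 10 genes with E2 (Tbxas1), 2 with E4 (Ptgs2 and Ptger3) and 1 with tamoxifen (Ptges), against 2.82%, 9.38% and 2.58% of all genes. The median log2 fold change of the 10 genes was 0.048 with E2, -0.18 with E4 and -0.15 with tamoxifen, and that of all tested genes was 0.0060, -0.014 and -0.0031. These 3 comparisons share the OVX libraries. With the B cell markers as a covariate, the number called with E4 was 0 of 10, where 102 of all tested genes were called in place of 5511. With the macrophage markers as a covariate the number called with E2 was 0 of 10, where 1035 of all genes were called in place of 1037. Ptgis, Ptgir, Tbxa2r, Ptgds and Ptger4 were called in none of the 6 comparisons among the 4 groups.

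**Figure D2:**
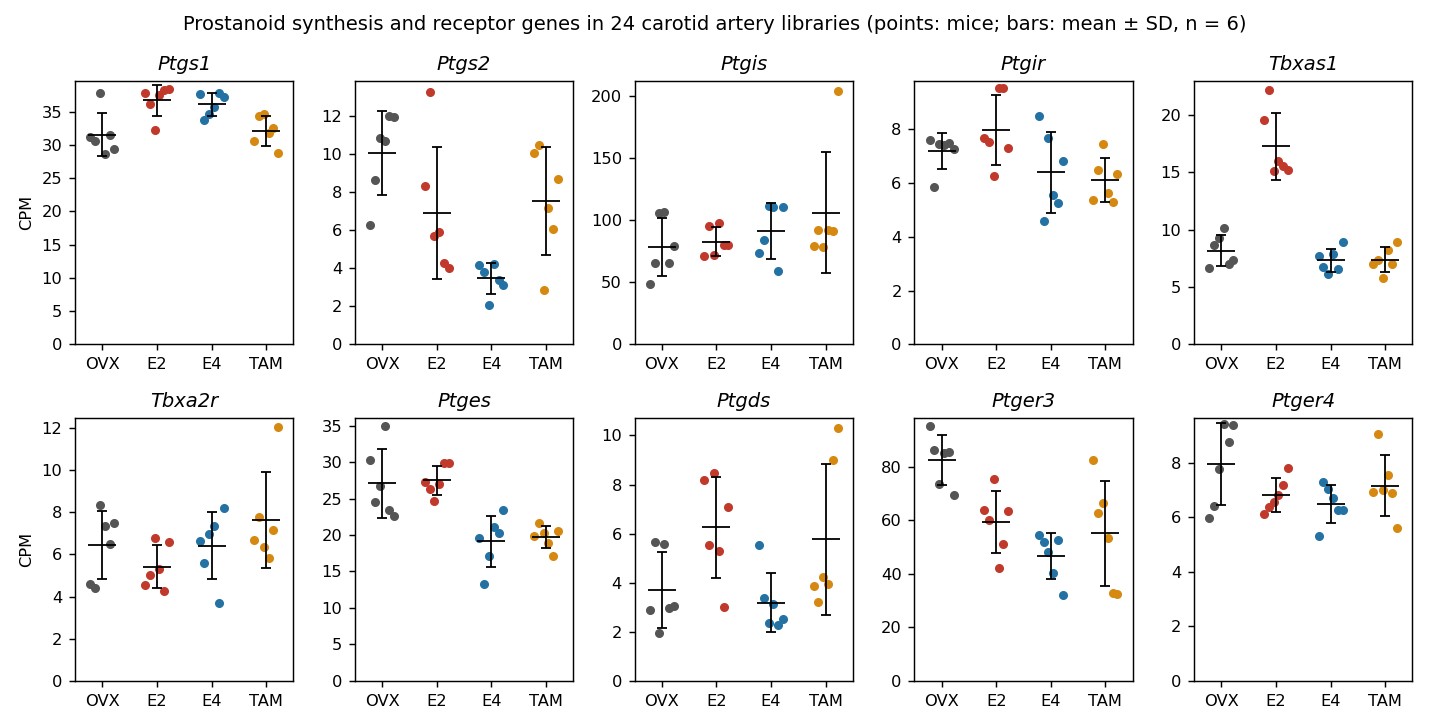
CPM of each gene in every library (points), with the mean and SD of 6 libraries per group (bars), on axes that start at 0. Tbxas1 is above all other groups with E2, and Ptgs2 with E4 lies below all OVX values.

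**Figure D3:**
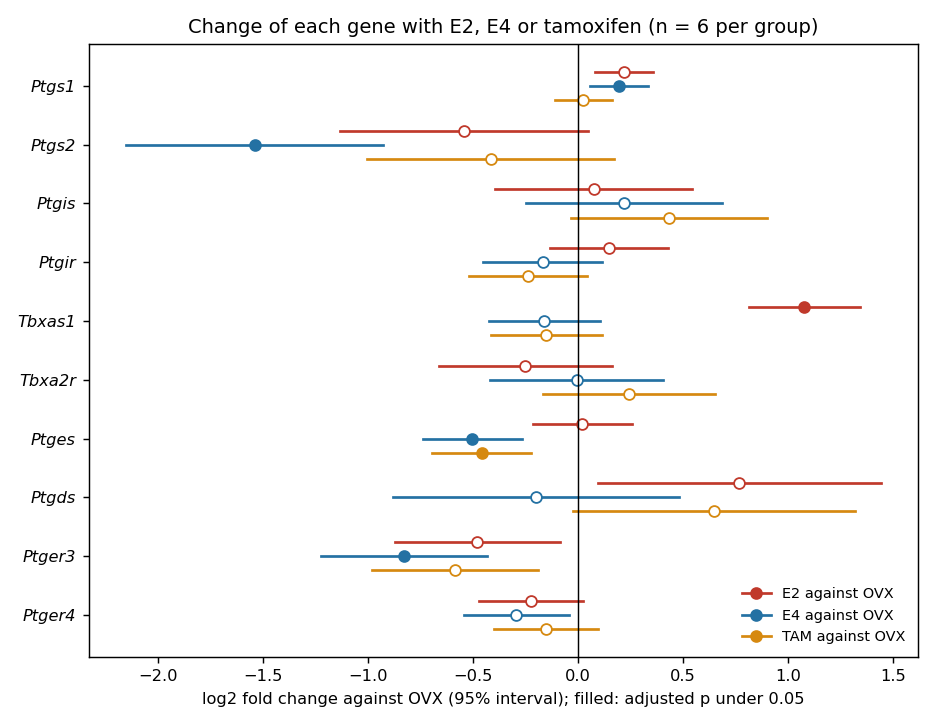
Log2 fold change of each gene against OVX with its 95% interval in the E2, E4 and TAM groups, filled where the adjusted p-value is under 0.05. The filled points are Tbxas1 with E2, Ptgs1, Ptgs2, Ptges and Ptger3 with E4, and Ptges with TAM.

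Ptgs2, the inducible cyclooxygenase, was the gene with the largest decrease. In OVX its lowest, median and highest values were 6.27, 10.8 and 12.03 CPM. With E4 they were 2.06, 3.59 and 4.25 CPM, so that every E4 library was below every OVX library. The log2 fold change was -1.54 (SE 0.30, 95% interval -2.15 to -0.93, adjusted p = 0.00154), a 2.90-fold lower level. With E2 the values were 4.02, 5.81 and 13.3 CPM, and with tamoxifen 2.85, 7.93 and 10.5 CPM, and both ranges overlapped that of OVX. Neither difference passed the test (log2 -0.54, adjusted p = 0.371 with E2, and -0.41, adjusted p = 0.423 with tamoxifen). In the second number series alone, the E2 difference was -1.35 and passed (adjusted p = 0.0300), and the adjusted p over its 12 alternatives was 0.0300 to 0.9998. E2 C8, at 13.3 CPM, was the highest of the 24 libraries.

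The decrease of Ptgs2 with E4 was called in each of the 24 fits that left out 1 library. It was not called in the first number series alone (log2 -1.45, adjusted p = 0.0536) or with the mean of the B cell markers as a covariate (-1.23, adjusted p = 0.178), and the adjusted p over its 12 alternatives was 1.16e-05 to 0.178. The summed B cell markers were 5.33 to 35.3 CPM in OVX and 3.20 to 7.23 CPM with E4, and the summed fibroblast markers 3910 to 6059 and 2693 to 4354 CPM. Of the 6 platelet markers, 2 were called lower with E4 (Pf4 and Ppbp), and their sum was 26.6 to 51.4 CPM in OVX and 20.7 to 30.45 CPM with E4. After the group means were removed, the Pearson r of Ptgs2 over the 24 libraries was 0.582 with the platelet, 0.465 with the fibroblast and 0.203 with the B cell marker sum (log2). The part of these lists in the Ptgs2 result was not tested. All 6 B cell markers were called lower with E4, so that the B cell covariate is tied to the group and cannot tell their part apart. That fit called 102 of all genes in place of 5511. As compared with E2, Ptgs2 was lower with E4 by a log2 fold change of -0.997 (SE 0.29, adjusted p = 0.0296), with ranges that overlapped between 4.02 and 4.25 CPM. This call was lost without E2 C8 (-0.70, adjusted p = 0.119), E2 C6 (-0.94, 0.0640), E4 C20 (-0.88, 0.0747) or E4 C38 (-0.99, 0.0502). It was kept in 8 of 12 alternatives, and the others were the first (-1.44, adjusted p = 0.0603) and second number series alone (-0.38, 0.752) and the B cell (-0.84, 0.167) and macrophage covariates (-0.24, 0.866).

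Ptgs1, the constitutive cyclooxygenase, differed little between groups. Its lowest, median and highest values were 28.7, 30.9 and 37.8 CPM in OVX and 33.7, 36.4 and 37.8 CPM with E4. The ranges overlapped through OVX C4 alone, the highest OVX library. The log2 fold change with E4 was 0.20 (SE 0.066, adjusted p = 0.0367), a 1.15-fold higher level, and it was called in 4 of 12 alternatives. Without OVX C5 and TAM C35 together it was 0.18 (adjusted p = 0.0551). It lost its call without OVX C2, C3, C5, C24 or C25, or E4 C16, C20, C38 or C39, where the log2 fold change was 0.18 to 0.21. With E2 the values were 32.2, 37.6 and 38.4 CPM, and a log2 fold change of 0.22 (SE 0.066) missed the threshold (adjusted p = 0.0611). It passed without OVX C4 (0.28, adjusted p = 0.00716), without E2 C9 (0.25, 0.0312), with DESeq2 (0.0155) and with DESeq2's size factors (0.0436), and the highest adjusted p over its 12 alternatives was 0.769. With tamoxifen the values were 28.7, 32.2 and 34.7 CPM (log2 0.026, adjusted p = 0.857), and this value turned negative with the sympathetic or B cell markers as a covariate.

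Within each library, the ratio of Ptgs2 to Ptgs1 per length does not depend on the library scaling. It was 0.170 to 0.345 in OVX (median 0.280), 0.0887 to 0.312 with E2 (median 0.142), 0.0505 to 0.101 with E4 (median 0.0846) and 0.0698 to 0.279 with tamoxifen (median 0.224). All 6 E4 libraries had a lower ratio than any OVX library, and the E2 and tamoxifen libraries overlapped both groups.

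Tbxas1, which encodes thromboxane A synthase, was the gene with the clearest difference. In OVX its lowest, median and highest values were 6.70, 7.99 and 10.1 CPM. With E2 they were 15.1, 15.8 and 22.2 CPM. All 6 E2 libraries were above the 18 others, since the E4 values were 6.09, 7.22 and 8.89 CPM and the tamoxifen values 5.78, 7.195 and 8.91 CPM. The log2 fold change of E2 against OVX was 1.08 (SE 0.13, 95% interval 0.81 to 1.34, adjusted p = 5.74e-06), a 2.11-fold higher level. It was 1.12 in the first number series alone and 1.11 in the second (adjusted p = 0.00495 and 0.0162), and it was called in every fit that left out 1 library. With E4 and tamoxifen the log2 fold changes against OVX were -0.16 (adjusted p = 0.379) and -0.15 (adjusted p = 0.530), both of which turned positive in the second number series. Tbxas1 was lower with E4 than with E2 by a log2 fold change of -1.24 (SE 0.13, adjusted p = 1.76e-05) and lower with tamoxifen than with E2 by -1.23 (SE 0.13, adjusted p = 1.13e-06). In the second number series alone, E4 against E2 was -0.98 and not called, and 0 of all genes were called there (adjusted p = 0.225, against 3.32e-16 to 0.225 over its 12 alternatives).

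The macrophage markers moved with Tbxas1. The summed CPM of the 8 markers was 416.0 to 728.4 in OVX, 735.4 to 1043 with E2, 293.5 to 560.7 with E4 and 386.3 to 457.2 with tamoxifen, so that all E2 libraries were above the others for this sum too. OVX C5, the OVX library with the highest macrophage sum, also had the highest Tbxas1 value of its group. Tbxas1 as a percentage of the macrophage sum, a measure chosen after the values were seen, was 1.39% to 2.02% in OVX, 1.65% to 2.13% with E2, 1.47% to 2.25% with E4 and 1.496% to 2.05% with tamoxifen, and these ranges overlapped. With the mean macrophage marker level as a covariate, the difference between E2 and OVX was 0.52 and missed the threshold (adjusted p = 0.0670, the highest of its 12 alternatives). The differences of E4 and tamoxifen against E2 became -0.57 in both cases (adjusted p = 0.224 and 0.106), in a fit that called 0 of all genes in E4 against E2. Platelets also carry thromboxane synthase. Of 6 platelet markers, 0 were called with E2, with a sum of 36.6 to 55.7 CPM against 26.6 to 51.4 CPM in OVX, and their part in the Tbxas1 values was not tested. Treml1 was the 1 platelet marker at 0 in any library, in 2 of 24. Over the 24 libraries the Pearson r of Tbxas1 was 0.94 with the macrophage, 0.88 with the platelet and 0.60 with the fibroblast marker sum (log2). After the group means were removed it was 0.69, 0.79 and 0.84. OVX C5 had the highest sum of its group for each of these lists. Lists that move together cannot be told apart by such r values, which carry no test.

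**Figure D4:**
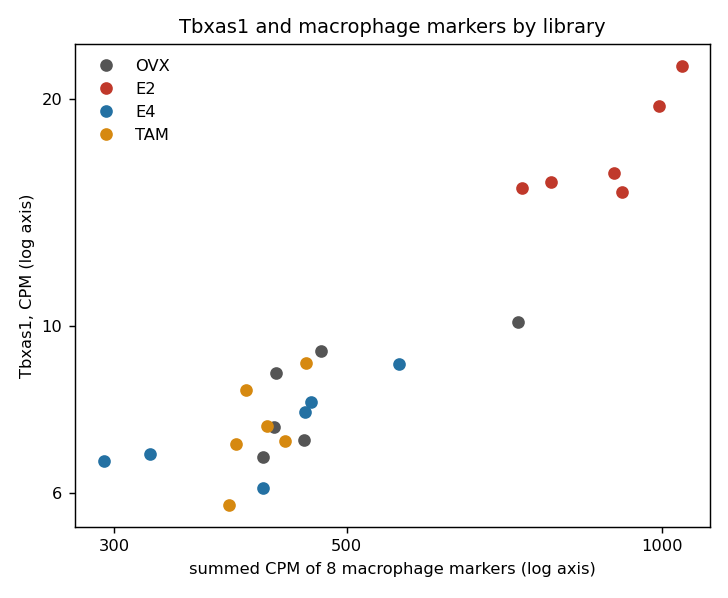
Tbxas1 CPM against the summed CPM of 8 macrophage markers in each of the 24 libraries (both axes log), coloured by group. The 6 E2 libraries lie at the upper right, above 735 CPM of macrophage markers and 15 CPM of Tbxas1, and the OVX library nearest to them is C5.

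Ptgis, which makes prostacyclin, was not called in any comparison (lowest adjusted p = 0.276). Its lowest, median and highest values were 48.6, 72.6 and 106.9 CPM in OVX, 71.6, 80.1 and 97.7 with E2, 58.9, 97.3 and 111.3 with E4, and 78.4, 91.7 and 204.6 with tamoxifen. The ranges overlapped in all groups, and the highest value belonged to TAM C35, the library with few sympathetic transcripts. The summed smooth muscle markers were 8461 CPM in that library and 3034 to 4338 CPM in the other 5 tamoxifen libraries. Over the 24 libraries, log2 CPM of Ptgis had a Pearson r of 0.91 with the log2 sum of the smooth muscle markers, and 0.93 after the group means were removed. These are descriptions over libraries that differ in tissue makeup, and carry no test. As a percentage of the smooth muscle sum, Ptgis was 1.91% to 3.08% over all 24 libraries. The per-length ratio of Ptgis to Tbxas1 was 25.7 to 40.4 in OVX (median 35.3), 12.9 to 21.6 with E2 (median 17.6), 31.6 to 64.7 with E4 (median 44.1) and 39.8 to 81.3 with tamoxifen (median 45.2). The E2 libraries were below all the others for this ratio, while the ranges of Ptgis itself overlapped.

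Ptges, the inducible microsomal prostaglandin E synthase, was lower with E4 and with tamoxifen. Its lowest, median and highest values were 22.6, 25.6 and 34.99 CPM in OVX and 24.6, 27.1 and 29.8 with E2. They were 13.3, 19.9 and 23.4 CPM with E4 and 17.1, 20.1 and 21.6 CPM with tamoxifen. All tamoxifen libraries were below all OVX libraries, and E4 C39 overlapped the lowest OVX value. Both groups lay below all 6 E2 libraries. The log2 fold change against OVX was -0.50 with E4 (SE 0.11, adjusted p = 0.00450) and -0.46 with tamoxifen (SE 0.11, adjusted p = 0.0387), and 0.020 with E2 (adjusted p = 0.977). The E2 value is near 0 and took either sign over the alternatives.

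As a percentage of the summed fibroblast markers, which were lower with E4, Ptges was 0.504% to 0.775% in OVX (median 0.553%) and 0.493% to 0.719% with E4 (median 0.548%), and these ranges overlapped. With E2 it was 0.425% to 0.744% (median 0.565%) and with tamoxifen 0.361% to 0.548% (median 0.477%). This share was not among the planned measures, and the part of fibroblasts in the Ptges values was not tested. Over the 24 libraries the Pearson r of Ptges with the log2 marker sum was 0.73 for platelet, 0.66 for macrophage and 0.64 for fibroblast markers. After the group means were removed it was 0.38, 0.47 and 0.42.

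The E4 call for Ptges held in each of the 24 fits that left out 1 library, but not in the second number series alone, where the value was -0.084 (adjusted p = 0.818), or with the B cell markers as a covariate (-0.51, adjusted p = 0.153), and the adjusted p over its 12 alternatives was 0.000772 to 0.818. The first series alone gave the largest decrease, -0.81. The tamoxifen call was lost without OVX C2, C3 or C5, or TAM C11, C12, C13, C32 or C33, with log2 fold changes of -0.49 to -0.37, and it was kept in 4 of 11 alternatives. Without OVX C5 and TAM C35 together it was -0.38 (adjusted p = 0.0841). As compared with E2, Ptges was lower by -0.52 with E4 (SE 0.11, adjusted p = 0.00562) and by -0.48 with tamoxifen (SE 0.11, adjusted p = 0.0121). With the macrophage markers as a covariate these became -0.11 and -0.069 (adjusted p = 0.788 and 0.857, the highest of their alternatives), and 0 of all genes were called in E4 against E2 in that fit.

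Ptgds, which makes prostaglandin D2, had wide ranges. Its lowest, median and highest values were 1.96, 3.01 and 5.67 CPM in OVX, 3.00, 6.30 and 8.47 with E2, 2.27, 2.82 and 5.52 with E4, and 3.21, 4.10 and 10.3 with tamoxifen. All 4 ranges overlapped. The smallest adjusted p was that of E4 against E2 (log2 -0.97, SE 0.33, adjusted p = 0.0543). It passed in 5 of 12 alternatives, whose adjusted p ranged from 0.0221, without OVX C5 and TAM C35 together (-0.95), to 0.963, and without E4 C16, the highest E4 library (-1.19, adjusted p = 0.0292), E2 C27 (-1.11), OVX C5 (-0.95), TAM C35 (-0.95), OVX C3 or OVX C4 (both -0.97).

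Ptger3, a prostaglandin E2 receptor that couples to inhibition of cAMP, was the most abundant of the 4 receptors and had a lower mean in all 3 treated groups than in OVX. In OVX its lowest, median and highest values were 69.5, 85.4 and 95.1 CPM. With E4 they were 32.2, 49.9 and 54.6 CPM, all below every OVX library. The log2 fold change was -0.83 (SE 0.19, 95% interval -1.22 to -0.43, adjusted p = 0.00503), a 1.77-fold lower level. With E2 the values were 42.0, 61.7 and 75.4 CPM (log2 -0.48, SE 0.19, adjusted p = 0.188) and with tamoxifen 32.5, 58.1 and 82.6 CPM (-0.58, SE 0.19, adjusted p = 0.0887). Both ranges overlapped that of OVX, and neither difference passed the test. As compared with E2, E4 gave -0.35 (95% interval -0.74 to 0.045, adjusted p = 0.220), so that a difference between these treatments was not shown.

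The decrease of Ptger3 with E4 held in all 24 fits that left out 1 library. It was -0.89 in the second number series alone (adjusted p = 0.247) and -0.90 with the B cell markers as a covariate (adjusted p = 0.137), and neither passed. The adjusted p over its 12 alternatives was 0.000880 to 0.247. As a percentage of the summed fibroblast markers, Ptger3 was 1.39% to 2.43% in OVX and 0.740% to 1.92% with E4, and these ranges overlapped. This share was not among the planned measures, and the part of fibroblasts in the Ptger3 result was not tested. OVX C5, with few sympathetic transcripts, had 85.1 CPM, in the middle of its group. TAM C35 had 32.5 CPM, the lowest of its group, and TAM C33, whose sympathetic markers were not low, had 32.8 CPM. TAM C33 and C35 also had the highest Schwann cell sums (2889 and 2947 CPM) and endothelial sums (976.7 and 1278 CPM) of the tamoxifen group. What set these single libraries apart was not tested. Over the 24 libraries Ptger3 had a Pearson r of -0.60 with the smooth muscle markers and -0.62 with the endothelial markers, and -0.75 and -0.70 after the group means were removed. With the sympathetic markers as a covariate, the tamoxifen difference passed (-0.64, adjusted p = 0.0468, the lowest of 11 alternatives, the highest being 0.773).

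The prostacyclin and thromboxane receptors were expressed at similar CPM. Ptgir had 5.85, 7.45 and 7.62 CPM (lowest, median, highest) in OVX, 6.25, 7.60 and 9.56 with E2, 4.61, 6.18 and 8.51 with E4, and 5.31, 5.99 and 7.45 with tamoxifen. Its ranges overlapped, and its lowest adjusted p over the 6 comparisons was 0.0924. Tbxa2r had 4.42, 6.92 and 8.34 CPM in OVX, 4.28, 5.16 and 6.77 with E2, 3.69, 6.80 and 8.23 with E4, and 5.81, 6.92 and 12.1 with tamoxifen, where TAM C35 was again the highest. Its lowest adjusted p was 0.147. The per-length ratio of Ptgir to Tbxa2r had medians of 0.623 in OVX, 0.913 with E2, 0.555 with E4 and 0.472 with tamoxifen, with overlapping ranges.

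Ptger4, a prostaglandin E2 receptor that couples to a rise of cAMP, had 5.98, 8.25 and 9.41 CPM in OVX, 6.11, 6.68 and 7.81 with E2, 5.33, 6.50 and 7.28 with E4, and 5.59, 6.95 and 9.05 with tamoxifen. The ranges overlapped and its lowest adjusted p was 0.0811. Of its exon bases, 16.5% are shared with the opposite-strand genes Ttc33 and Gm15937, so that its counts are uncertain if strand was not used in counting, which the sources used here do not state. The shares were 6.08% for Ptgis, 3.81% for Ptgs1 and 1.58% for Tbxas1, and 0 for the other 6 genes.

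Between treatments, 3 of the 10 genes were called in E4 against E2 (Tbxas1, Ptges and Ptgs2, all lower), against 12.6% of all genes, and Tbxas1 passed the study's thresholds (2.49% of all genes). In tamoxifen against E2, 2 were called (Tbxas1 and Ptges, both lower), against 6.4% of all genes, and Tbxas1 passed the study's thresholds (1.65%). In tamoxifen against E4, edgeR called 0 of the 10 genes, against 0.343% of all genes (0.2% at the study's thresholds). At an unadjusted p under 0.05 were 3 of the 10 genes and 2286 of all 25056 genes. Among the 10, the largest difference was that of Ptgs2, which was higher with tamoxifen by a log2 fold change of 1.12 (SE 0.29, 95% interval 0.52 to 1.73, adjusted p = 0.126). DESeq2 called this gene (adjusted p = 0.0233), and so did edgeR without TAM C13, the lowest tamoxifen library (1.29, adjusted p = 0.0263).

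Other genes of the pathway were taken from a list of 26 genes found in the annotation, of which 24 were tested. They cover the phospholipases that release arachidonic acid, other synthases and reductases, the remaining receptors, and the transporters and enzymes that clear prostaglandins. With E2, 2 of 24 were called, both higher. With E4, 8 were called, 3 higher and 5 lower, and with tamoxifen 2, 1 higher and 1 lower. The shares of all tested genes called in these comparisons were those given above. With E4, 0 of the 24 were called in the second number series alone or with the B cell markers as a covariate, fits that called 5 and 102 of all genes in place of 5511. The median log2 fold changes of the 24 genes were 0.074, -0.074 and -0.030.

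Upstream of the cyclooxygenases, 3 of the 5 tested phospholipase A2 genes were called lower with E4, against 12.5% of all genes, and the other two were not called (Pla2g5, log2 -0.64, adjusted p = 0.0837, and Pla2g6, 0.32, adjusted p = 0.124). Pla2g4b had 9.45, 11.04 and 13.1 CPM (lowest, median, highest) in OVX and 7.15, 8.50 and 9.44 CPM with E4, which did not overlap (log2 -0.38, SE 0.098, adjusted p = 0.00910). Its counts are uncertain, since 66.5% of its exon bases are shared with Gm28042 on the same strand and Sptbn5 on the other. Its call was kept in 10 of 12 alternatives. It was lost in the second number series alone, where the value was -0.091 (adjusted p = 0.848), and with the B cell covariate (-0.43, adjusted p = 0.177). Pla2g4a, the cytosolic phospholipase A2 alpha, had 12.8, 18.96 and 23.9 CPM in OVX and 10.1, 13.3 and 15.7 with E4 (-0.51, SE 0.18, adjusted p = 0.0444). Pla2g2d, a secreted phospholipase A2, had 3.75, 5.30 and 7.78 CPM in OVX and 1.96, 3.56 and 4.72 with E4 (-0.66, SE 0.23, adjusted p = 0.0405). The Pla2g4a and Pla2g2d ranges overlapped those of OVX, and their calls were kept in 4 and 2 of 12 alternatives. Over these the value of Pla2g4a was -0.59 to -0.10 (adjusted p up to 0.908), nearest to 0 with the B cell covariate, and that of Pla2g2d -0.83 to -0.42 (adjusted p up to 0.467). With 1 library left out, the Pla2g4a call was lost without OVX C3, C4, C5 or C25, E2 C6, C26 or C27, TAM C12, C32 or C33, or E4 C16, C19, C20, C38 or C39 (-0.54 to -0.42). The Pla2g2d call was lost without OVX C4, C5 or C25, or E4 C19, C20, C36 or C39 (-0.68 to -0.52), and without OVX C5 and TAM C35 together it was -0.52 (adjusted p = 0.0757).

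Of the enzymes downstream, Hpgds, the hematopoietic prostaglandin D synthase, had 7.26, 8.39 and 11.1 CPM in OVX and 3.93, 5.22 and 6.72 CPM with E4, without overlap (log2 -0.74, SE 0.15, adjusted p = 0.00233). With tamoxifen it had 4.74, 6.06 and 6.54 CPM, again below all OVX libraries (-0.57, SE 0.15, adjusted p = 0.0457), and that call was lost without OVX C3, C5 or C24, E2 C6 or C26, TAM C11, C12, C13, C32, C33 or C35, or E4 C20 or C36 (-0.60 to -0.49). It was kept in 4 of 11 alternatives, with an adjusted p up to 0.773, and without OVX C5 and TAM C35 together it was -0.43 (adjusted p = 0.113). Hpgd, which starts the breakdown of prostaglandins, had 15.2, 16.3 and 19.8 CPM in OVX and 7.41, 10.6 and 13.6 CPM with E4, without overlap (-0.71, SE 0.17, adjusted p = 0.00598). The E4 calls of Hpgds and Hpgd were each kept in 10 of 12 alternatives, with log2 fold changes of -0.75 to -0.62 and -0.84 to -0.58 (adjusted p up to 0.283 and 0.361). Of 6 mast cell markers, 4 were called lower with E4 (Cpa3, Mcpt4, Cma1 and Ms4a2, log2 -1.33 to -0.72) and Kit was called higher, their sum was 68.7 to 178.7 CPM in OVX and 70.7 to 110.8 CPM with E4, none was at 0 in any library, and their part in the Hpgds result was not tested. Akr1c18, an aldo-keto reductase of prostaglandin and progestin metabolism, was the pathway gene with the largest change. It had 3.89, 6.99 and 11.999 CPM in OVX and 11.4, 17.8 and 23.6 CPM with E2 (1.28, SE 0.29, adjusted p = 0.00985), and OVX C5 alone overlapped the E2 range. With the macrophage markers as a covariate its value was 0.10 (adjusted p = 0.885, the highest of its 12 alternatives).

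Both transporters on the list were called higher with E4, as were 9.5% of all genes. Slco2a1, the prostaglandin uptake carrier, had 14.5, 18.9 and 22.7 CPM in OVX, 24.8, 30.4 and 41.3 with E2 and 22.8, 26.98 and 42.5 with E4. Both groups were above all OVX libraries (log2 0.72, SE 0.17, adjusted p = 0.0109 with E2, and 0.62, SE 0.17, adjusted p = 0.0123 with E4). Each call was kept in 9 of 12 alternatives, with log2 fold changes down to 0.31 with E2 and 0.43 with E4 and an adjusted p up to 0.431 and 0.361. Abcc4, an exporter that carries prostaglandins among other substrates, had 12.99, 17.6 and 19.98 CPM in OVX, 22.1, 24.5 and 27.9 with E4 and 17.0, 24.8 and 28.99 with tamoxifen. It was called higher with E4 (0.54, SE 0.13, adjusted p = 0.00606) and tamoxifen (0.53, SE 0.13, adjusted p = 0.0365), and the tamoxifen call was lost without OVX C3 or C5, or TAM C11, C12, C13, C32 or C33 (0.47 to 0.53) and kept in 6 of 11 alternatives. Among receptors, Ptgdr2, a prostaglandin D2 receptor, was called higher with E4 (0.94, SE 0.29, adjusted p = 0.0230) at a low level, 0.0766 to 0.281 CPM in OVX and 0.254 to 0.329 CPM with E4, with overlapping ranges. This call was lost without OVX C3 (0.82) or OVX C5 (0.88) and kept in 8 of 12 alternatives, and 38.99% of the exon bases of Ptgdr2 are shared with Ccdc86 on the other strand.

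In tamoxifen against E4, edgeR and DESeq2 each called 0 of these 24 genes. At an unadjusted p under 0.05 in edgeR were 2 of the 24 there, and 2286 of all 25056 genes. Among these genes, 5 of 24 were called in E4 against E2 (12.6% of all genes) and 3 of 24 in tamoxifen against E2 (6.4% of all genes). Akr1c18, Hpgds and Hpgd were lower than with E2 in both, by -1.49, -0.82 and -0.80 with E4 and by -1.75, -0.65 and -0.58 with tamoxifen (log2, SE 0.15 to 0.30). The other two with E4, named after their values were seen, were Ptgfr, the prostaglandin F2 alpha receptor (-0.68, SE 0.20, adjusted p = 0.0265), and Cbr1, a carbonyl reductase (0.30, SE 0.088, adjusted p = 0.0298). With the macrophage markers as a covariate, none of these 8 calls remained, and 5 of the values took the other sign. That fit called 0 of all 25056 genes in E4 against E2, in place of 3157, and 475 in tamoxifen against E2, in place of 1604. With 1 library left out, calls were lost for Ptgfr without E2 C6, E2 C8, E4 C19, E4 C20 or E4 C38 (-0.68 to -0.47), for Cbr1 without E2 C6, C8 or C9, E4 C19 or E4 C20 (0.25 to 0.29), and for Hpgd in tamoxifen against E2 without E2 C6, C8 or C9 or TAM C11, C12, C13, C32 or C35 (-0.61 to -0.43). Without OVX C5 and TAM C35 together, 10 of 24 were called in E4 against E2, where 6465 of all genes were called, and 6 of 24 in tamoxifen against E2, where 3332 were. The genes gained, named after their values were seen, were Pla2g4a (-0.39, adjusted p = 0.0370), the prostaglandin E2 receptor gene Ptger2 (-0.59, 0.0455), the prostaglandin reductase gene Ptgr2 (-0.31, 0.0372), the prostaglandin F synthase gene Fam213b (0.27, 0.0353) and Abcc4 (0.34, 0.0252) in E4 against E2. In tamoxifen against E2 they were Cbr1 (0.27, adjusted p = 0.0317), Ptgfr (-0.70, 0.0152) and Abcc4 (0.40, 0.0225). With all libraries the adjusted p of these 8 differences was 0.0738 to 0.156.

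**Figure D5:**
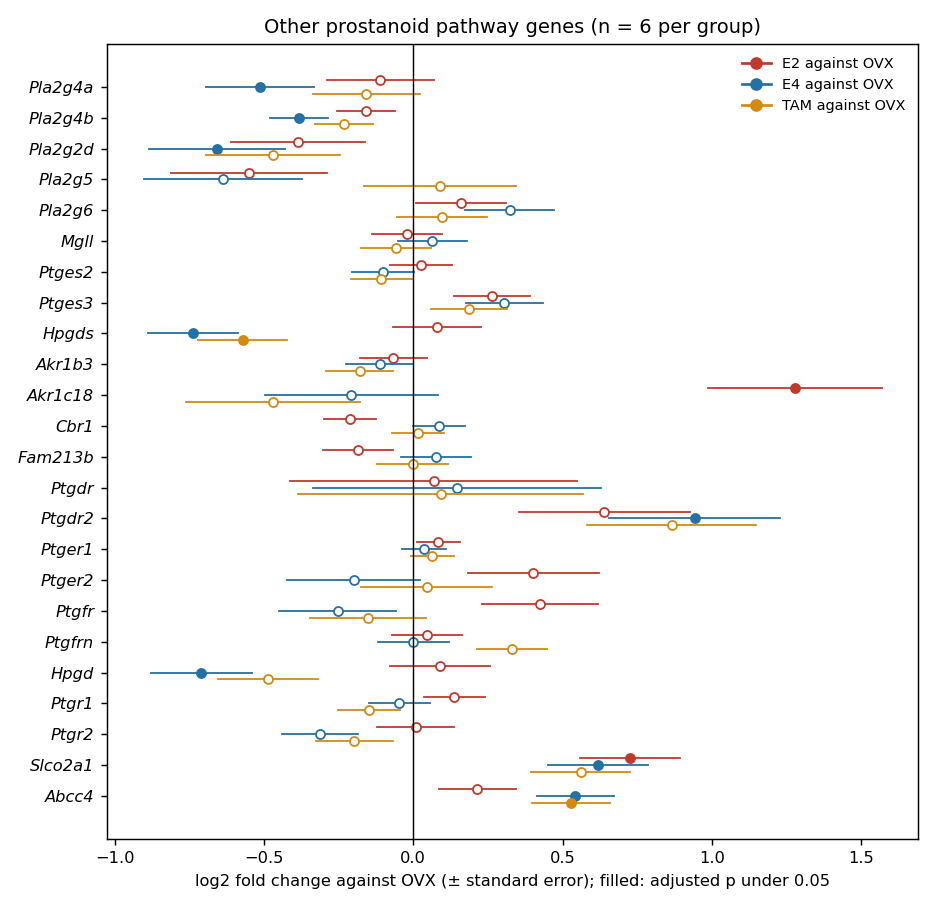
Log2 fold change against OVX with its standard error for the 24 tested genes of the wider pathway in the E2, E4 and TAM groups, filled where the adjusted p-value is under 0.05. Akr1c18 with E2 has the largest change, and the transporters Slco2a1 and Abcc4 lie above 0 in all 3 comparisons.

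The genes most like each changed gene were sought among 19530 genes of at least 1 CPM on average, by Pearson r of log2 CPM over the 24 libraries. For Tbxas1 they were Cfp (0.96), Adgre1 (0.96), which is one of the macrophage markers, and Akr1c14 (0.95), and r was 0.76 to 0.81 after the group means were removed. For Ptgs2 they were Fbxo30 (0.91), Inhba (0.90) and Dusp1 (0.89), with 0.80 to 0.84 after that step. Rab3il1, Phf5a and Gpr183 were most like Ptges (0.81 to 0.83, and 0.54 to 0.60 after that step). Gm43980, Gm16072 and Zfp969 were most like Ptger3 (0.85 to 0.86, and 0.72 to 0.80), and Psen2, Clic1 and Il4ra most like Ptgs1 (0.78 to 0.79, and 0.55 to 0.76). These values describe libraries that differ in treatment and in tissue makeup, and carry no test.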

How the data were processed

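Libraries were made from carotid artery RNA with a stranded mRNA kit and sequenced as paired reads. For each library the authors deposited 1 table of estimated counts by gene, which were not normalized. The submitters' processing notes name bcl2fastq 2.17, Trim Galore, Bowtie2, featureCounts and the build mm10 (GRCm38), and the counting options, strand included, are not given in the sources used here. Between 8.87% and 9.80% of the values per library had decimals, and values were rounded to whole numbers before testing. Gene names and coordinates come from GENCODE mouse release 21, which matched 55240 of 55421 identifiers, and start regions from RefSeq. No 2 libraries agreed within sampling noise (smallest chi-square per gene 11.6).

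Counts of all 24 libraries entered 1 fit of 4 groups in edgeR 4.0.16 (R 4.3.3), with TMM scaling, the default filter on low counts, the quasi-likelihood test and Benjamini-Hochberg adjustment over 25056 genes. Standard errors come from the F statistic. The procedure was tested on simulated counts. Alternatives covered DESeq2 1.42.0, its size factors, no filter, fits of fewer groups, the 2 number series, marker means as covariates, and each library left out. All 10 genes are named, with the pathway genes called against OVX and the 3 genes most like each changed gene. The 10 genes and all lists were chosen with earlier results of these data known. A count of 3 corresponds to 0.0467 to 0.122 CPM, and such limits cover counting error only. Replicates were taken as separate animals by their title numbers, and whether they are independent in other respects is not stated.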

Additional observations from a re-analysis of the deposited data

Results flagged for a closer look

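In groups of 6 libraries, a lowest or highest value was taken as far from the others when its gap to the nearest library exceeded Dixon's critical share of the group's range. This was examined in 116 groups of members, called pathway genes and marker sums, and 15 were found, where chance gives about 5.8.

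TAM C35 accounted for 6 of them. It had 204.6 CPM of Ptgis against 78.4 to 92.2 in the other tamoxifen libraries, 12.1 CPM of Tbxa2r against 5.81 to 7.78, 28.6 CPM of Pla2g4a against 13.04 to 16.01 and 5.83 CPM of Pla2g2d against 2.92 to 3.95. Its summed smooth muscle markers were 8461 CPM against 3034 to 4338, and its summed sympathetic markers 175.6 CPM against 4789 to 6992.

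OVX C5 stood apart in 2 sums, with 728.4 CPM of macrophage markers against 416.0 to 472.4 and 51.4 CPM of platelet markers against 26.6 to 33.5. E4 C39 stood apart in 2 sums, with 1042 CPM of endothelial markers against 686.5 to 811.3 and 3777 CPM of Schwann cell markers against 1632 to 2397. The B cell sum of E2 C27 was 16.04 CPM against 5.25 to 8.98.

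Among members, Ptgs1 was 37.8 CPM in OVX C4 against 28.7 to 31.5, and 32.2 CPM in E2 C9 against 36.1 to 38.4. Ptgir was 5.85 CPM in OVX C3 against 7.29 to 7.62, and Ptgds was 5.52 CPM in E4 C16 against 2.27 to 3.39.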

How the results depend on the processing

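Over 491 values of single genes under the alternatives other than leaving out 1 library, 370 kept their direction and their side of the threshold, 100 lost a call, 10 gained one and 11 changed sign. With 1 library left out, these numbers were 911, 83, 9 and 5 of 1008. Levels per length moved by less than the spread between libraries without TMM scaling, for 40 of 40. No paired analysis was possible because each title number occurs in 1 group only. The causes were not tested. Fits of 1 number series hold 2 to 4 libraries per group. The lowest count of the 10 genes in any library was 56.

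Counts of prostanoid genes are given for each alternative that moved them by over 1.5 times, and as a range for the remaining ones. A count does not say which genes were called. The number of the 10 genes called with E2 against OVX (1) became 2 with DESeq2, its size factors, the second number series and the sympathetic covariate, and 0 with the macrophage covariate, and was 1 in the rest. For E4 against OVX (4) it became 2 in the first and 1 in the second series and 0 with the B cell covariate, and was 3 to 4 in the rest. For tamoxifen against OVX (1) it became 0 without a filter, with the 2 groups alone, in either series, with the B cell or macrophage covariate and without OVX C5 and TAM C35, and 2 with the sympathetic covariate, and was 1 in the rest. For E4 against E2 (3) it became 0 in the second series and with the macrophage covariate, and was 2 to 4 in the rest, for tamoxifen against E2 (2) it became 1 in the first series and 0 with the macrophage covariate, and was 2 to 3 in the rest, and for tamoxifen against E4 (0) it became 1 with DESeq2 and was 0 in the rest. With 1 library left out, the ranges in this order were 1 to 2, 3 to 4, 0 to 1, 2 to 5, 2 to 3 and 0 to 1. In the same fits and order, the numbers called among all genes were 804 to 1262, 3280 to 6389, 76 to 876, 1440 to 4315, 1008 to 2046 and 63 to 118.

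These counts stand beside those of all genes, which moved too. For E4 against OVX, 5511 genes were called, 3078 in the first and 5 in the second series, 4535 with the sympathetic and 102 with the B cell covariate. For E2 against OVX, 1037 were called, 1547 with DESeq2, 1046 with its size factors, 341 and 92 in the first and second series, 2138 with the sympathetic and 1035 with the macrophage covariate. For tamoxifen against OVX, 558 were called, 208 without a filter, 39 with the 2 groups alone, 1 and 0 in the first and second series, 400 with the series as a term, 1393, 15 and 608 with the sympathetic, B cell and macrophage covariates, and 269 without OVX C5 and TAM C35. For E4 against E2, 3157 were called, 5256 with the 2 groups alone, 0 in the second series, 725 with the B cell and 0 with the macrophage covariate, and 6465 without OVX C5 and TAM C35. For tamoxifen against E2, 1604 were called, 1150 and 115 in the first and second series, 3291 with the sympathetic and 475 with the macrophage covariate, and 3332 without OVX C5 and TAM C35. For tamoxifen against E4, 86 were called, and 204 with DESeq2.

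For the other pathway genes, the count for E2 against OVX (2) became 0 in either series and was 2 to 3 in the rest. For E4 against OVX (8) it became 4 in the first and 0 in the second series, 5 with the sympathetic and 0 with the B cell covariate, and was 6 to 8 in the rest. For tamoxifen against OVX (2) it became 0 without a filter, with the 2 groups alone, in either series and with the B cell covariate, 1 with the series as a term and without OVX C5 and TAM C35, and 4 with the sympathetic or macrophage covariate, and was 2 to 3 in the rest. For E4 against E2 (5) it became 9 with the 2 groups alone, 0 in the second series, 3 with the B cell and 0 with the macrophage covariate, and 10 without OVX C5 and TAM C35, and was 5 to 7 in the rest. For tamoxifen against E2 (3) it became 5 in the first and 0 in the second series, 5 with the sympathetic and 1 with the macrophage covariate, and 6 without OVX C5 and TAM C35, and was 2 to 3 in the rest. With 1 library left out, the ranges were 2 to 2, 5 to 10, 0 to 3, 3 to 6 and 2 to 6, and 0 to 0 for tamoxifen against E4. The numbers called among all genes in these fits are those given above with the ranges of the 10 genes.

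Signs changed for Ptgs1 with tamoxifen (log2 -0.0034 with the sympathetic and -0.0079 with the B cell covariate), Tbxas1 with E4 (0.13) and tamoxifen (0.17) in the second series, and Ptges with E2 (-0.16 in the first series, -0.32 with the macrophage covariate, and -0.027 to 0.11 with 1 library left out). With the macrophage covariate they changed for Hpgds (0.022) and Hpgd (0.11) in E4 against E2, Hpgds (0.21) and Hpgd (0.34) in tamoxifen against E2 and Ptgfr (0.47) in E4 against E2.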

Other observations

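Ptgdr, which encodes a prostaglandin D2 receptor, belongs to the wider pathway and was named after its values were seen. Its lowest values in OVX and tamoxifen were 0.0659 CPM in OVX C5 and 0.186 CPM in TAM C35, the libraries with the fewest sympathetic transcripts. The other 10 libraries of those groups had 0.664 to 2.19 CPM.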
